A study of Mus musculus with 56 samples.

Results

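The genes followed here make and use glutathione, remove reactive oxygen, or modify and conjugate foreign and internal compounds. They were chosen by symbol, as the genes of the glutathione transferase (Gst, Mgst), glutathione synthesis and peroxidase (Gclc, Gclm, Gss, Gpx), thioredoxin and peroxiredoxin (Txn, Prdx), superoxide dismutase (Sod1, Sod2, Sod3), metallothionein (Mt1, Mt2), aldehyde dehydrogenase (Aldh), cytochrome P450 families 1 to 4 (Cyp) and conjugation or epoxide hydrolysis (Sult, Ugt, Ephx) groups, with Cat, Nqo1, Hmox1 and Keap1. This gave 80 of the 6795 genes named on the array, on 82 of 9596 probes. Prdx2 and Sod2 had 2 probes each, which were averaged. By role the members were 23 cytochromes P450, 15 glutathione transferases, 10 aldehyde dehydrogenases, 10 genes of conjugation and epoxide hydrolysis, 9 of the thioredoxin system, 4 of glutathione synthesis and peroxidases, 4 superoxide dismutases and catalase, 3 regulators or classic targets of NRF2, and 2 metallothioneins. Nfe2l2, Gsr, Txnip, Srxn1 and Cyp1a1 were not analysed here.

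NRF2, the product of Nfe2l2, is a transcription factor held inactive by KEAP1. When electrophiles or oxidants modify KEAP1, NRF2 accumulates, enters the nucleus and binds antioxidant response elements, which raises genes for glutathione synthesis (Gclc, Gclm), thioredoxin reduction (Txnrd1), heme breakdown (Hmox1), quinone reduction (Nqo1) and glutathione conjugation. In the epidermis these enzymes, with metallothioneins, aldehyde dehydrogenases and cytochromes P450, meet oxidants, metals and chemicals at the body surface, and several of them also metabolise lipids and retinoids of the skin itself.

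RNA of cultured keratinocytes of newborn mice was compared on 2-colour arrays, with cells given transforming growth factor β1 (TGF-β1, a cytokine that halts the growth of epithelial cells) at 1 ng/ml in channel 2 and untreated cells of the same kind in channel 1. The groups were Smad3 knockout ras and Smad3 knockout primary cells and Smad3 wild type ras and Smad3 wild type primary cells, all of the strain labelled C57B1/SVJ and treated for 48 h, and Balb/c ras and Balb/c primary cells treated for 1, 6, 24 or 48 h. Ras cells were keratinocytes transduced on day 3 of culture with a retrovirus carrying Ha-ras and treated 4 days later. Their untreated partner thus also carried Ha-ras. Every ratio compares treated with untreated cells, and does not show a difference in level between cell types or genotypes. A ratio from 1 dye order also holds any dye effect of the gene. The Smad3 knockout, labelled Smad3-/- and gene knock out, removes a signal transducer that TGF-β receptors activate and that then acts on genes, and both channels of a knockout array held knockout RNA.

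Treated RNA carried Cy5 on 49 of the 56 arrays, which gave the means and tests, and Cy3 on 7 arrays named as dye reversed (5 of Balb/c and 2 of Smad3 knockout cells), whose values are given as deposited. The Cy5 arrays at 1, 6, 24 and 48 h numbered 6, 7, 6 and 4 for Balb/c ras cells and 6, 7, 6 and 3 for Balb/c primary cells, and each Smad3 genotype had 1 in each cell type. Values are log2 ratios after each array was centred on its median, with the log base taken as 2 from the size of the values and the direction, treated over untreated, likely from the channel order. At 1 h the TGF-β targets Skil and Smad7 averaged 1.34 and 1.16 in ras cells and 1.02 and 0.98 in primary cells, positive on every Cy5 array. Clu was high on Cy5 arrays at 48 h (mean 2.23 in ras and 2.88 in primary cells). On all 7 reversed arrays it was negative as deposited (-2.41 to -0.51), as if their sign had not been turned. Skil, positive on every Cy5 array of 48 h, went both ways. As deposited it read 0.61 on primary 48 h replicate 3 and 0.64 and 0.49 on the reversed knockout ras and primary arrays. It was negative on the other reversed arrays, so the deposited sign could not be settled. Among features called on the Cy5 arrays of a group with 1 sign throughout and a mean of 1 or more in size (19 at ras 6 h, 159 at ras 24 h, 98 at ras 48 h and 339 at primary 48 h), the share with the opposite sign was 100% on the ras 6 h, 39.6% on the ras 24 h, 38.8% on the ras 48 h and 74.3% and 72.9% on the primary 48 h reversed arrays, so responses are given with these arrays left out and then, where it changes a call, with them turned and a dye term fitted. Nothing in the labels says that arrays of a group came from separate cultures, so the p-values may reflect technical spread alone. The SD of all log2 ratios of an array ran from 0.19 to 1.81, and the widest arrays were ras 24 h replicate 1 and primary 6 h replicate 1.

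Most of the 80 genes responded little, which was not particular to them. The median size of the mean response in primary 48 h cells was 0.31 for the members and 0.30 over all features. In ras 24 h cells it was 0.22 and 0.21, and in ras 48 h cells 0.22 and 0.24. Of the 640 mean responses (80 genes in 8 groups), 72 were 0.5 or more in size. Of the genes, 61 were called in no response (limma, Benjamini-Hochberg adjusted p under 0.05 over 8905 features). The matching counts over all features are not given here. No member was called at 1 h in either cell type, when 0.0786% of all features were called in ras and 0.0112% in primary cells; 9 and 3 members (11.2% and 3.75%) had an unadjusted p under 0.05, as did 7.04% and 5.39% of all features. At 6 h 1 of 80 members (1.25%) was called in ras cells, against 1.72% of all features, and none in primary cells, against 0.0112%, where 7 members (8.75%) and 9.41% of all features had an unadjusted p under 0.05. At 24 h ras cells had 5 members higher and 5 lower (12.5%, against 10.5% of all features, 3.92% higher and 6.63% lower), and primary cells had none (1.35% of all features), with 9 members (11.2%) and 10.1% of all features at an unadjusted p under 0.05. At 48 h 2 members were higher and none lower in ras cells (2.5%, against 3.56% of all features, 1.97% higher and 1.59% lower), and 8 were higher and 1 lower in primary cells (11.2%, against 8.64% of all features, 5.2% higher and 3.44% lower). The shares of members called were thus near those of all features. Fitted on the arrays of 1 group alone, ras 24 h, ras 48 h and primary 48 h cells had no member called. These fits called 0.0337%, 0% and 0% of all features, so they say nothing particular to the members. With the reversed arrays turned and a dye term, members called numbered 2 at 1 h (1.2% of all features), none at 6 h (1.17%), 3 at 24 h (1.71%) and none at 48 h (0.46%) in ras cells, and none at 1 h (0% of all features), none at 6 h (0.146%), 6 at 24 h (3.66%) and 10 at 48 h (7.93%) in primary cells. Ras 1 h and primary 1, 6 and 24 h cells had no reversed array. In this fit their values are Cy5 means less a dye term drawn from other groups. The dye term of the members ran from -0.75 to 0.57. Of the 22 calls in the responses, 8 were made both with the reversed arrays left out and with them turned. The median response of the members was 0.07 in ras 24 h cells, against 0.01 over all features, and -0.13 in primary 48 h cells, against -0.04 over all features. The map of mean responses shows the calls scattered over the roles and gathered in these late groups.

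**Figure D1:**
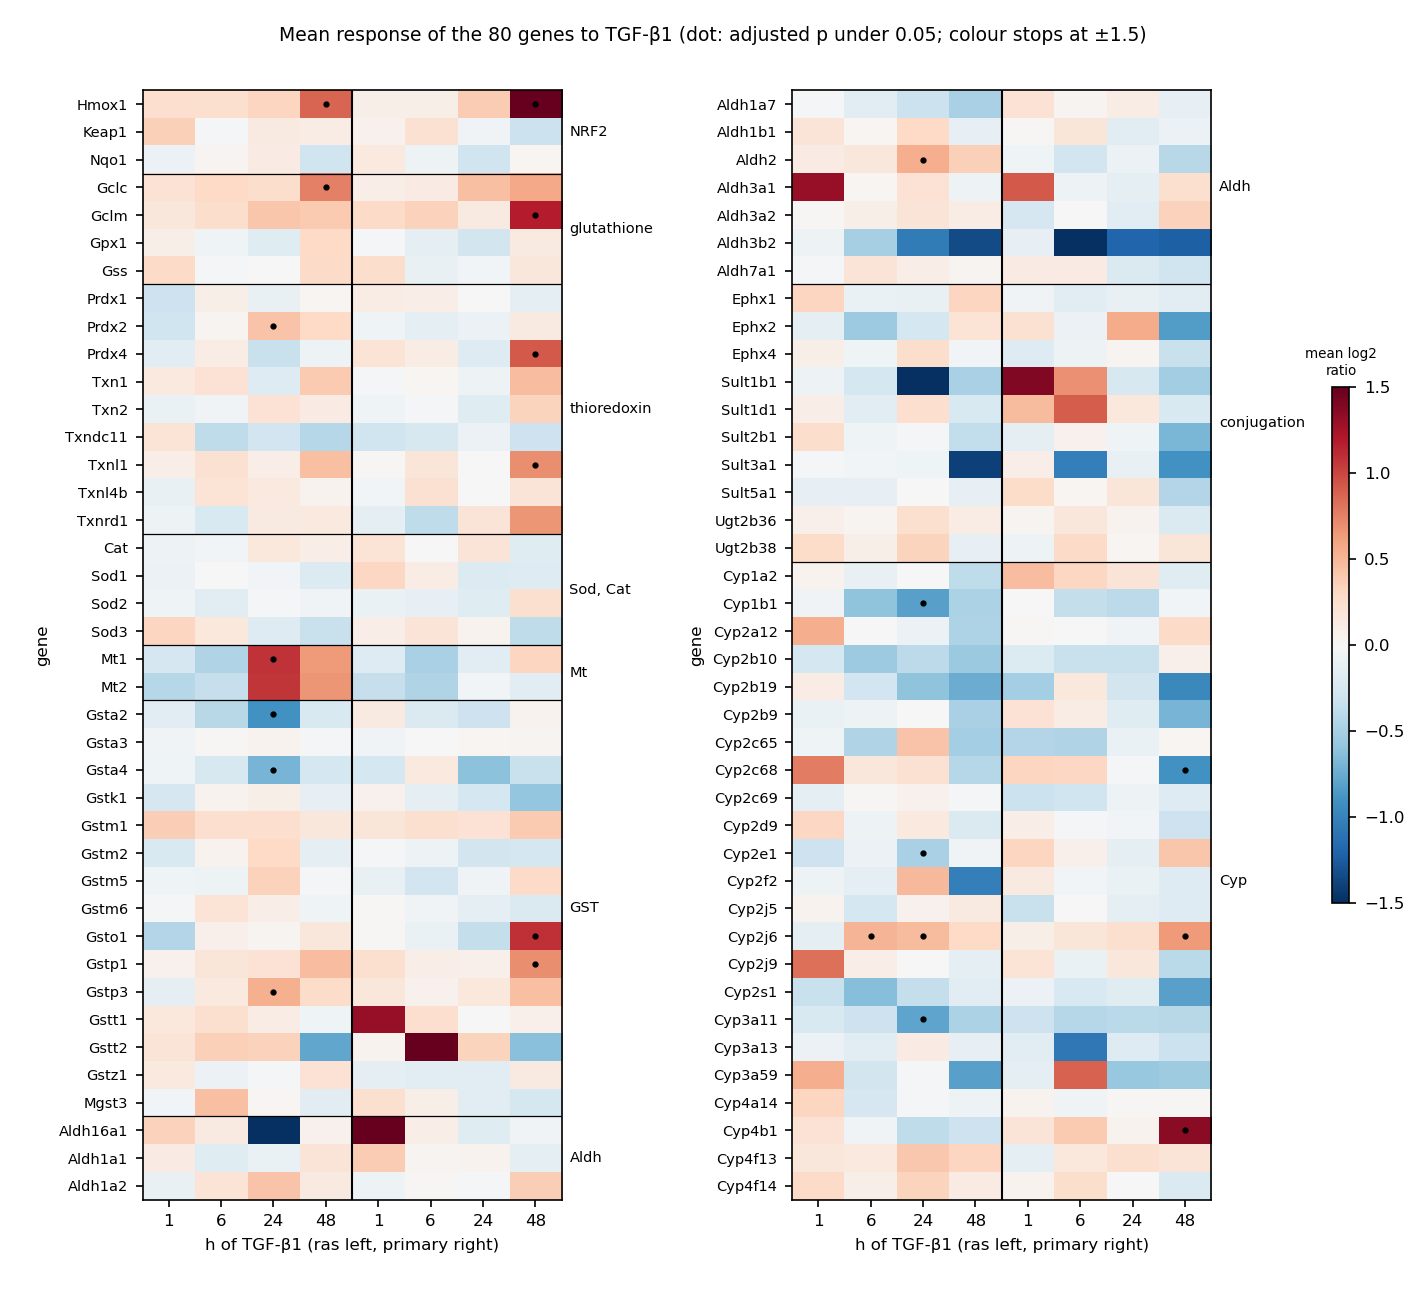
Mean log2 ratio of treated over untreated RNA for each of the 80 genes (rows, grouped by role) at 1, 6, 24 and 48 h in ras (left of each panel) and primary cells (right), over the arrays with treated RNA in Cy5. Dots mark responses with an adjusted p under 0.05; strong colours without a dot, such as Aldh16a1 at 24 h in ras cells, did not pass the test.

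Among the NRF2 genes Hmox1, which encodes the heme oxygenase that breaks heme into biliverdin, iron and carbon monoxide, rose at 48 h in both cell types. Its log2 ratios were 1.03, 1.07, 1.10 and 0.30 on the ras 48 h arrays, and 1.90, 2.19 and 0.60 on the primary 48 h arrays. All 7 values were positive, and in each cell type 1 array lay well below the others. The mean was 0.87 ± 0.22 in ras cells (SE, 4 arrays, adjusted p = 0.018), a 1.83-fold rise, and 1.56 ± 0.25 in primary cells (SE, 3 arrays, adjusted p = 3.37e-05), a 2.95-fold rise. Hmox1 was positive on 17 of the 19 Balb/c Cy5 arrays of 24 and 48 h. The reversed arrays read 0.14 at ras 48 h and -0.87 and 0.07 at primary 48 h. With the reversed arrays turned and a dye term, the primary response was 1.05 (adjusted p = 0.000543) and the ras response was 0.54 and no longer called (adjusted p = 0.386). The ras call also ended without replicate 1 (0.82, adjusted p = 0.112), without replicate 2 (0.81, 0.0634) or without replicate 3 (0.80, 0.11).

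Nqo1 and Keap1 were called in no response. Nqo1, a quinone reductase widely used as a readout of NRF2, read -0.46, -0.44, -0.15 and -0.16 on the ras 48 h arrays and 0.17, -0.25 and 0.18 on the primary 48 h arrays. Its mean responses ran from -0.30 to 0.15 over the 8 groups, and none was called. Keap1, the inhibitor of NRF2, had mean responses from -0.33 to 0.36, none of them called.

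Of the 4 genes of glutathione synthesis and peroxidases, Gclm was called higher in primary and Gclc in ras cells at 48 h, and no other response of the 4 was called. Gclm, the modifier subunit of glutamate-cysteine ligase, which catalyses the rate-limiting step of glutathione synthesis, read 0.36, 0.97, 0.36 and -0.12 on the ras 48 h arrays and 1.06, 1.73 and 0.75 on the primary 48 h arrays. The primary arrays were all positive, while 1 ras array was slightly negative. The primary mean was 1.18 ± 0.22 (SE, 3 arrays, adjusted p = 0.000256), a 2.27-fold rise, and was 0.67 with the reversed arrays turned and a dye term (adjusted p = 0.00525). Gclm had a positive mean in all 8 groups (0.14 to 1.18) and was positive on 40 of the 45 Balb/c Cy5 arrays. As deposited it was also positive on 5 of the 7 reversed arrays, among them 0.25 at ras 48 h, and read 0.03 and -0.20 on the primary 48 h reversed arrays.

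Gclc, the catalytic subunit of the same ligase, read 0.86, 1.18, 0.88 and 0.10 on the ras 48 h arrays and 0.75, 0.66 and 0.28 on the primary 48 h arrays. All 7 values were positive, as were 18 of the 19 Balb/c Cy5 arrays of 24 and 48 h. The ras mean of 0.75 ± 0.17 was called (SE, 4 arrays, adjusted p = 0.00934), and the primary mean of 0.56 ± 0.20 was not (SE, 3 arrays, adjusted p = 0.0654). The ras call ended without replicate 1 (0.72, adjusted p = 0.0783), without replicate 2 (0.61, 0.0668) or without replicate 3 (0.71, 0.0653). Gclc was also positive as deposited on 5 of the 7 reversed arrays, at 0.48 on the ras 48 h and 1.01 and 0.52 on the primary 48 h reversed arrays, so its sign at 48 h did not turn with the dye. With those arrays turned and a dye term the ras response was 0.25 (adjusted p = 0.832). Gss, which completes glutathione synthesis, and Gpx1, the main cytosolic glutathione peroxidase, had mean responses from -0.11 to 0.29 and from -0.28 to 0.30, none of them called.

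The promoters of members that rose in primary cells by 48 h are shown because the antioxidant response element is the binding site through which NRF2 acts, and because these genes differ in whether its core lies close to the start. The windows hold 250 bases before and 50 bases after the start of the gene on GRCm38.p6, from RefSeq, read 5′ to 3′ on the strand of the gene. Capitals mark the core TGACNNNGC, searched on both strands. Gclm lies at chr3:122245307-122245606 on the plus strand, Gsto1 at chr19:47854723-47855022 on the plus strand, Prdx4 at chrX:155338411-155338710 on the minus strand, and the second of 3 Txnrd1 windows at chr10:82858956-82859255 on the plus strand.
Gclm: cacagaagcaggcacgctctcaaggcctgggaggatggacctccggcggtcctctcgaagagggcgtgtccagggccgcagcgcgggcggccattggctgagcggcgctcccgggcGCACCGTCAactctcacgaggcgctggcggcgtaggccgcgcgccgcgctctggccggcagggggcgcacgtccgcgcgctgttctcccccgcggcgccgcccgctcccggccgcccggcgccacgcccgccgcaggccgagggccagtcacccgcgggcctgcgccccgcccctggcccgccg
Gsto1: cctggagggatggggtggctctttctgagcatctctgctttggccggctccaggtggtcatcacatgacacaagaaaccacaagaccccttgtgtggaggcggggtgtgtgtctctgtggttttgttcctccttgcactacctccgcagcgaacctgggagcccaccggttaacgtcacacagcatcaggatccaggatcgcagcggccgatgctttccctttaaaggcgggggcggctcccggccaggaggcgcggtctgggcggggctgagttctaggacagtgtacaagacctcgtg
Prdx4: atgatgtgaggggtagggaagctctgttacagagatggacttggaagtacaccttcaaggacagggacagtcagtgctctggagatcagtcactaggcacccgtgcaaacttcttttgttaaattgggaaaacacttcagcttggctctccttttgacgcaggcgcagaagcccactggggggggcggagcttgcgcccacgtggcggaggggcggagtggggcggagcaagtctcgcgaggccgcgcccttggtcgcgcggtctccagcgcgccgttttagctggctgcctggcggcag
Txnrd1: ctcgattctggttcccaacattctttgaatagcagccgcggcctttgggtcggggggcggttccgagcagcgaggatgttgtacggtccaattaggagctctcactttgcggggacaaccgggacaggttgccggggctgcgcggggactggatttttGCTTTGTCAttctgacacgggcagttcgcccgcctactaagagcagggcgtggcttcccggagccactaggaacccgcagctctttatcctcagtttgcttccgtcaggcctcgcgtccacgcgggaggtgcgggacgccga

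The core was found in Gclm, beginning 134 bases before the start, and in Txnrd1, beginning 92 bases before the start, both on the opposite strand. No core was found in these windows of Gsto1 and Prdx4 or in the other 2 Txnrd1 windows. It was present in 12 of the 82 windows of 68 members (14.6%), against 12.4% of all 32851 windows, and the 12 genes were Aldh1a2, Cyp2c65, Cyp2j6, Cyp4f14, Gclm, Gsta3, Gstm5, Mt2, Prdx1, Sod1, Txndc11 and Txnrd1. Of these, Cyp2j6 and Gclm were called in a response, and Txnrd1 and Gsta3 between times or genotypes. Of all 80 members, with or without a window, 19 were called in a response. Whether members with the core were called more or less often than the others was not tested. Windows for Hmox1 and Gclc were not used here. A match is a run of letters and not a measured site.

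In the thioredoxin system, Prdx4, a peroxiredoxin of the endoplasmic reticulum, and Txnl1, a thioredoxin-like protein of the proteasome, rose in primary cells at 48 h. Prdx4 read 0.62, 1.27 and 0.86 on the primary arrays, with a mean of 0.92 ± 0.21 (SE, 3 arrays, adjusted p = 0.00256), and its value was 0.61 with the reversed arrays turned and a dye term (adjusted p = 0.0116). In ras cells at 48 h Prdx4 read 0.40, -0.90, 0.34 and -0.13, with both signs among the arrays. Without replicate 2 the primary value was 0.74 and no longer called (adjusted p = 0.101).

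Txnl1 read 0.30, 1.10 and 0.69 on the primary 48 h arrays (mean 0.70 ± 0.18 SE, adjusted p = 0.00853), but also 1.08 and 0.25 as deposited on the reversed arrays of that group. It thus kept its sign with either dye, and with the reversed arrays turned and a dye term it was 0.07 (adjusted p = 0.948). Without replicate 2 it was 0.49 (adjusted p = 0.276). Prdx2, a cytosolic peroxiredoxin, was higher in ras cells at 24 h by 0.43 ± 0.12 (SE, 6 arrays from 0.14 to 0.68, median 0.41, adjusted p = 0.0169), and by 0.14 with the dye term (adjusted p = 0.664). Its call ended without replicate 6 or without replicate 7 (0.38 each, adjusted p = 0.0572 and 0.0547).

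Txnrd1, the cytosolic thioredoxin reductase, was set apart by its change between times. It read 0.72, 0.78 and 0.50 on the primary 48 h arrays, against a lowest value of -0.78, a median of -0.27 and a highest of -0.10 on the 7 primary 6 h arrays. The groups did not overlap, but Txnrd1 was picked by this difference on the same arrays. The difference was 1.05 ± 0.29 (SE, 10 arrays, adjusted p = 0.0345) and 1.04 with the reversed arrays turned and a dye term (adjusted p = 0.0103), although neither response alone was called. The difference lost its call without primary 6 h replicate 1 (0.99, adjusted p = 0.0612), primary 6 h replicate 3 (0.98, 0.0685), primary 48 h replicate 1 (1.02, 0.122) or primary 48 h replicate 2 (0.99, 0.188). In ras cells Txnrd1 read 0.27, 0.13, 0.26 and -0.06 at 48 h.

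The plot of the 6 late genes shows each array, with the reversed arrays apart.

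**Figure D2:**
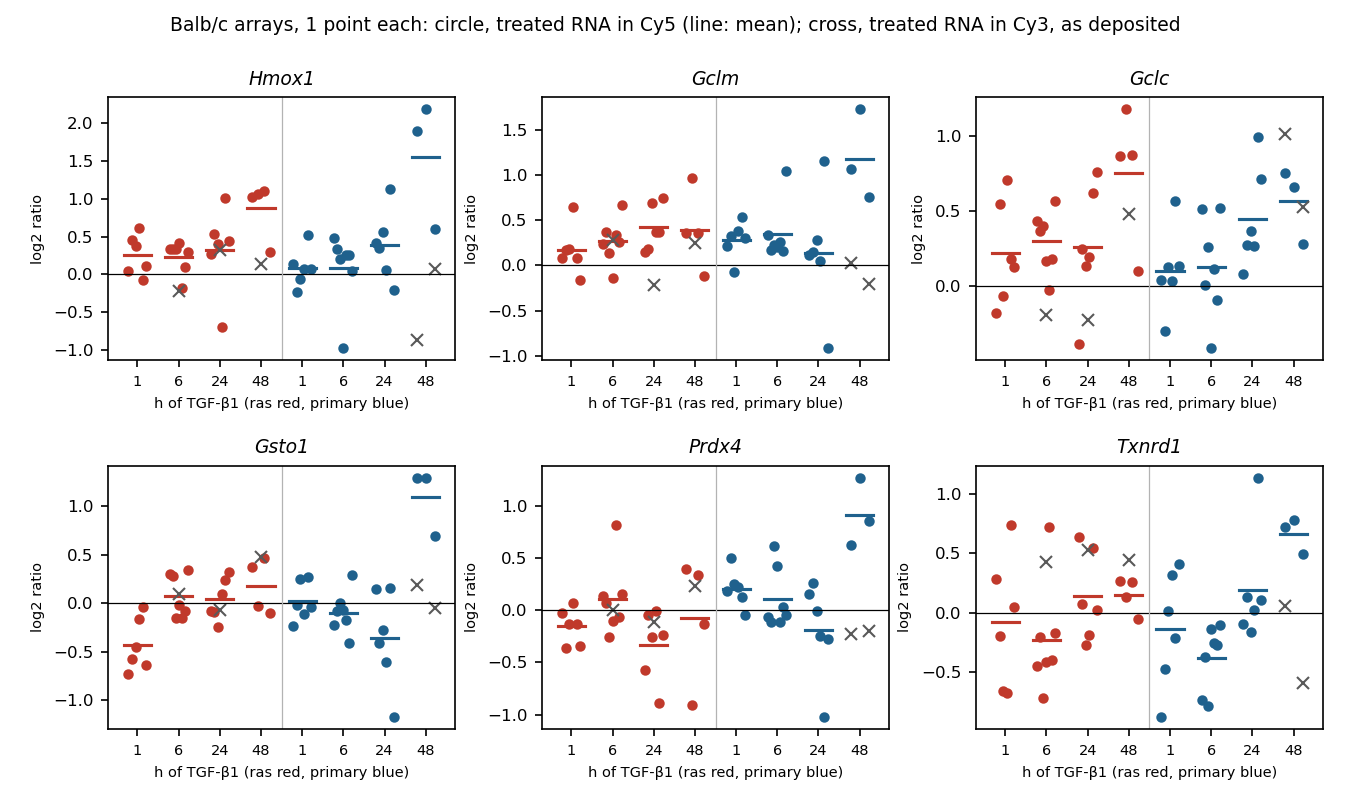
Log2 ratio of each Balb/c array (y axis) at 1, 6, 24 and 48 h of TGF-β1 in ras (red, left) and primary cells (blue, right) for Hmox1, Gclm, Gclc, Gsto1, Prdx4 and Txnrd1. Circles are arrays with treated RNA in Cy5, lines their means, and crosses the reversed arrays as deposited; the primary 48 h circles stand above 0 for all 6 genes, and the crosses of Gclc at 48 h do as well.

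The superoxide dismutases and catalase were not called in any response. The mean responses of Sod1, the cytosolic superoxide dismutase, lay between -0.20 and 0.31, those of Sod2, the mitochondrial form, between -0.18 and 0.24, and those of Sod3, the extracellular form, between -0.39 and 0.32. Catalase (Cat) lay between -0.18 and 0.20. The Sod2 probes disagreed in ras 24 h cells, with means of -0.43 and 0.37, and taken alone the probe at -0.43 was called (adjusted p = 0.0347).

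The metallothioneins, small proteins that bind zinc and copper and scavenge radicals, varied widely between arrays at 24 h. Mt1 had the same sign as Mt2 on 39 of the 49 Cy5 arrays. On the 6 ras 24 h arrays Mt1 had a lowest value of -0.42, a median of 1.17 and a highest of 2.12, and Mt2 had a lowest of -0.10, a median of 1.02 and a highest of 2.51. On the 6 primary 24 h arrays Mt1 read -1.65, -0.95, -1.07, -1.11, 2.79 and 1.00, and Mt2 read -1.42, -0.71, -1.62, -1.17, 3.23 and 1.48. The primary arrays thus fell into 4 well below 0 and 2 well above it for both genes, while most ras arrays were positive.

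Mt1 was called in ras cells at 24 h (1.09 ± 0.34 SE, adjusted p = 0.0341) and Mt2 was not (1.07 ± 0.38 SE, adjusted p = 0.0604). The Mt1 call ended without replicate 1 (1.13, adjusted p = 0.0865), 2 (1.00, 0.0734), 6 (0.93, 0.115) or 7 (0.88, 0.132), and with the reversed arrays turned and a dye term (0.48, adjusted p = 0.538). The arrays carry database numbers that fall into 5 blocks, and the 4 negative primary arrays were all of the first block, in which ras 24 h arrays averaged 0.63 for Mt1 and 0.48 for Mt2 and primary 24 h arrays averaged -1.20 and -1.23. In the second block the single ras array read 1.88 and 2.51 and the single primary array 2.79 and 3.23, and in the third block the ras array read 2.12 and 1.996 and the primary array 1.00 and 1.48. The difference between ras and primary cells at 24 h was not called for either gene, and the part of the block in it was not tested. At 48 h ras arrays ran from -0.32 to 2.22 for Mt1, and primary arrays from 0.16 to 0.44. The promoter windows held 3 metal response elements (TGCACNC or TGCGCNC) in Mt1 and 4 in Mt2, a motif found in 25.7% of all windows. The scatter of Mt1 against Mt2 shows the split of the primary 24 h arrays.

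**Figure D3:**
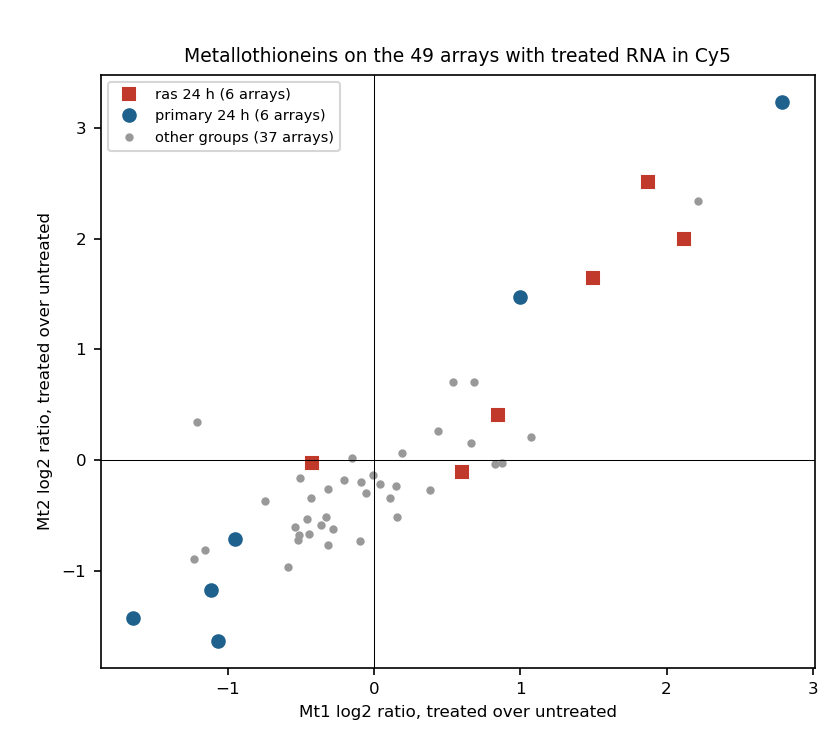
Log2 ratio of Mt2 (y axis) against that of Mt1 (x axis), 1 point for each of the 49 Cy5 arrays. Red squares are the 6 ras 24 h arrays, blue circles the 6 primary 24 h arrays and grey dots the other 37; 4 primary 24 h arrays lie at the lower left and 2 at the upper right.

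Glutathione transferases attach glutathione to electrophiles, and in ras cells at 24 h the alpha class members Gsta2 and Gsta4 fell. Gsta2 read 0.00, -0.50, -1.92, -0.92, -0.88 and -1.24, with a median of -0.90 and no value above 0. Its mean was -0.91 ± 0.21 (SE, 6 arrays, adjusted p = 0.0067) and -0.90 with the reversed arrays turned and a dye term (adjusted p = 0.0104). Gsta2 was negative on 15 of the 19 Balb/c Cy5 arrays of 24 and 48 h and 0 or above as deposited on all 7 reversed arrays, among them 0.27 at ras 24 h. In primary cells it was not called at any time.

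Gsta4, which conjugates the lipid peroxidation product 4-hydroxynonenal, read -1.62, -1.16, 0.45, -0.59, -0.78 and -0.47 on the ras 24 h arrays, with 1 positive array. The mean was -0.69 ± 0.23 (SE, adjusted p = 0.0493), close to the threshold, and -0.90 with the dye term (adjusted p = 0.0426). It was -0.51 to -0.74 and no longer called without replicates 1, 2, 5, 6 or 7, each left out alone (adjusted p = 0.068 to 0.289). In primary cells Gsta4 read 0.20, -0.42 and -0.79 at 48 h, and 1.84 and 1.91 as deposited on the reversed arrays. With those turned and a dye term Gsta4 was called lower in primary cells at 24 h (-0.94, adjusted p = 0.0432) and at 48 h (-1.02, adjusted p = 0.00915), and without them at neither time. Primary 24 h cells had no reversed array, so that call rests on a dye term from other groups.

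Gsto1, an omega class transferase that reduces dehydroascorbate and arsenic compounds, rose in primary cells at 48 h. It read 1.29, 1.29 and 0.69 there, and 0.37, -0.03, 0.46 and -0.11 on the ras 48 h arrays. The primary arrays stood above 0.6, and the highest of the primary 6 h arrays read 0.29. The mean was 1.09 ± 0.18 (SE, 3 arrays, adjusted p = 3.66e-05), a 2.13-fold rise, and 0.57 with the reversed arrays turned and a dye term (adjusted p = 0.00672). At 1 h in ras cells Gsto1 was negative on 6 of 6 arrays, with a mean of -0.43 (adjusted p = 0.344), and -0.73 with the dye term (adjusted p = 0.0164). That dye term came from other groups, since ras 1 h cells had no reversed array.

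Of the pi class, Gstp1 averaged 0.70 ± 0.22 in primary cells at 48 h (1.25, 0.61 and 0.23, adjusted p = 0.0418) and Gstp3 averaged 0.53 ± 0.13 in ras cells at 24 h (6 arrays from 0.32 to 0.84, median 0.55, adjusted p = 0.0089). Both were positive on every array of their group, and neither was called with the dye term (Gstp1 0.33, adjusted p = 0.316; Gstp3 0.16, adjusted p = 0.604). Gstp1 was not called without replicate 1 (0.42, adjusted p = 0.49) or without replicate 2 (0.74, adjusted p = 0.162). Gsta3 stayed between -0.90 and 0.81 on all 50 Balb/c arrays. With the dye term Gstk1 (-0.80) and Gstm2 (-0.59) were also called lower in primary cells at 48 h.

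Among the cytochromes P450, Cyp1b1, Cyp2e1 and Cyp3a11 fell in ras cells at 24 h. Cyp1b1, which oxidises polycyclic hydrocarbons, estrogens and retinoids, had a lowest value of -1.63, a median of -0.96 and a highest of 0.05, with a mean of -0.81 ± 0.19 (SE, 6 arrays, adjusted p = 0.00732). Cyp2e1, which oxidises ethanol and small solvents, was negative on 6 of 6 arrays (-0.93 to -0.15, median -0.44), with a mean of -0.48 ± 0.12 (SE, adjusted p = 0.00847). Cyp3a11, a broad drug oxidase of mouse liver, was negative on 6 of 6 arrays (-2.12 to -0.29, median -0.53), with a mean of -0.79 ± 0.24 (SE, adjusted p = 0.0302). With the reversed arrays turned and a dye term Cyp2e1 was still called (-0.57, adjusted p = 0.00543), and Cyp1b1 (-0.57, adjusted p = 0.193) and Cyp3a11 (-0.36, adjusted p = 0.544) were not. Cyp3a11 averaged -0.52 without replicate 1 (adjusted p = 0.258), the widest array, and -0.75 without replicate 5 (adjusted p = 0.0591). At 24 h in primary cells Cyp1b1 averaged -0.40 and Cyp3a11 -0.40, neither called.

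Cyp2j6, a P450 of the subfamily that forms epoxides of arachidonic acid, was called higher in 3 groups. It was positive on 7 of 7 ras 6 h arrays (0.29 to 0.66, median 0.54), with a mean of 0.51 ± 0.11 (SE, adjusted p = 0.00668). It averaged 0.48 ± 0.12 in ras cells at 24 h, positive on 6 of 6 arrays (0.13 to 0.98, median 0.33, adjusted p = 0.0105), and 0.64 ± 0.17 in primary cells at 48 h (0.49, 0.90 and 0.52, adjusted p = 0.011). Cyp2j6 was also positive as deposited on 6 of the 7 reversed arrays, and with those turned and a dye term none of the 3 responses was called (0.25, 0.21 and 0.21, adjusted p = 0.444 to 0.48). The primary call also ended without replicate 2 (0.51, adjusted p = 0.225).

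Cyp4b1 read 3.17, 0.24 and 0.67 on the primary 48 h arrays, and its mean of 1.36 ± 0.37 (SE, adjusted p = 0.0156) rested on replicate 1, without which it was 0.46 (adjusted p = 0.686). Cyp2c68 read -0.06, -1.63 and -1.04 there (mean -0.91 ± 0.30 SE, adjusted p = 0.0465). Its value was -0.55 without replicate 2 (adjusted p = 0.542), -0.84 without replicate 5 (adjusted p = 0.165) and -0.52 with the dye term (adjusted p = 0.577). Cyp2b19, an epoxygenase of differentiated mouse keratinocytes, had all 7 Cy5 arrays of 48 h below 0, at -1.28, -0.20, -0.84 and -0.66 in ras cells and -1.55, -0.22 and -1.11 in primary cells. Neither mean was called (-0.75, adjusted p = 0.183, in ras and -0.96, adjusted p = 0.097, in primary cells), and the reversed arrays of 48 h were negative too, at -0.96 in ras and -1.14 and -0.82 in primary cells.

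The aldehyde dehydrogenases oxidise aldehydes from lipids, ethanol and retinal. Aldh2, the mitochondrial enzyme, was positive on 6 of 6 ras 24 h arrays (0.16 to 1.02, median 0.44), with a mean of 0.55 ± 0.16 (SE, adjusted p = 0.0272), but was not called with the dye term (0.33, adjusted p = 0.351). The call also ended without replicate 1 (0.55, adjusted p = 0.0835), 6 (0.46, 0.106) or 7 (0.46, 0.0977). In primary cells at 48 h Aldh2 averaged -0.41 (adjusted p = 0.303), and -0.61 with the dye term (adjusted p = 0.0206).

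Aldh3b2, a lipid aldehyde dehydrogenase, was negative on all 19 Balb/c Cy5 arrays of 24 and 48 h without being called. It averaged -1.05 at 24 h and -1.35 at 48 h in ras cells, and -1.18 at 24 h and -1.22 at 48 h in primary cells (adjusted p = 0.118 to 0.242). Its values were -1.55, -1.96, -1.35 and -0.54 in ras and -1.29, -1.53 and -0.84 in primary cells at 48 h. A single array, primary 6 h replicate 1, read -6.99 and is part of the spread of this gene in the fit. The reversed arrays read 0.60 at ras 24 h, -0.49 at ras 48 h and 1.03 and -0.31 at primary 48 h.

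**Figure D4:**
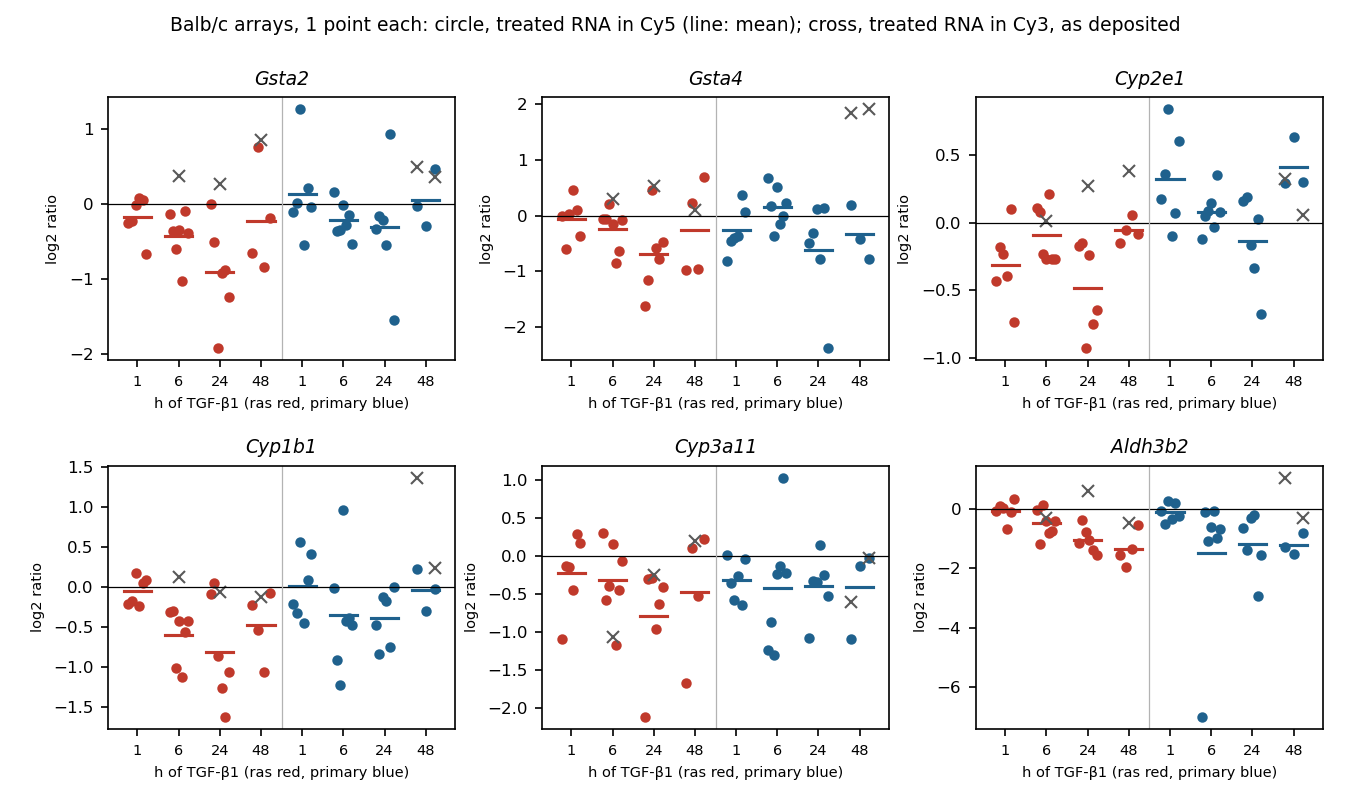
Log2 ratio of each Balb/c array (y axis) at 1, 6, 24 and 48 h of TGF-β1 in ras (red, left) and primary cells (blue, right) for Gsta2, Gsta4, Cyp2e1, Cyp1b1, Cyp3a11 and Aldh3b2. Circles are arrays with treated RNA in Cy5, lines their means, and crosses the reversed arrays as deposited; the ras 24 h means lie below 0 for all 6 genes, and Aldh3b2 has no Cy5 array above 0 at 24 or 48 h.

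The sulfotransferases, glucuronosyltransferases and epoxide hydrolases, which attach sulfate or glucuronic acid to their substrates or open epoxides, had none of their 10 members called. Sult2b1, the cholesterol sulfotransferase of the epidermis, was negative on 15 of the 19 Balb/c Cy5 arrays of 24 and 48 h, with means of -0.37 in ras and -0.69 in primary cells at 48 h (adjusted p = 0.484 and 0.154). Ephx1, the microsomal epoxide hydrolase, had mean responses from -0.17 to 0.32. Several members had single extreme values: of 3920 member values on Cy5 arrays 24 lay beyond 3 in size, 6 of them on the widest arrays. Aldh16a1 read 9.81 on primary 1 h replicate 3 and -9.82 on ras 24 h replicate 3, and Sult1b1 read 9.17 and -9.17 on the same arrays. Aldh3a1 read 7.05 on ras 1 h replicate 5 and 6.98 on primary 1 h replicate 5. In all, 17 responses of 10 genes had a mean of 1 or more in size and were not called, with an SD between arrays from 0.35 to 4.08.

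The response of ras cells was set against that of primary cells at each time to ask whether Ha-ras changes it. None of the 80 members was called in this difference at 1, 6, 24 or 48 h, when 0%, 0%, 0.0449% and 0.202% of all features were called by limma. At an unadjusted p under 0.05 the members numbered 3, 4, 11 and 7 (3.75%, 5%, 13.8% and 8.75%), against 4.17%, 4.51%, 10.3% and 6.69% of all features. At 48 h Hmox1, Gclm, Gsto1 and Prdx4 were called in primary cells and Gclc and Hmox1 in ras cells, but the lack of a call on 1 side is no difference between the cell types. Between 48 h and 6 h in primary cells, 3 members were higher at 48 h (3.75%, against 2.75% of all features and 1.85% called higher): Gsto1 by 1.19 ± 0.21 (adjusted p = 0.000422), Hmox1 by 1.48 ± 0.30 (adjusted p = 0.00224) and Txnrd1, given above. At 6 h Hmox1 ran from -0.98 to 0.49 and Gsto1 from -0.41 to 0.29, below all of their values at 48 h. These members were picked by the same test on the same arrays, so this separation adds no support. Without primary 48 h replicate 2 the Hmox1 difference was 1.16 (adjusted p = 0.0731). In ras cells no member was called between 48 h and 6 h (0.0337% of all features), with 3 members (3.75%) and 7.06% of all features at an unadjusted p under 0.05.

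At 48 h in primary cells, where 5.2% of all features were called higher and 3.44% lower, markers of other cell types were also called. Of 8 measured fibroblast markers 3 were higher (Mfap5 by 1.77, Col1a2 by 1.83 and Twist1 by 1.28) and none lower, with the list between -0.65 and 1.83. Of 9 leukocyte markers 3 were higher (Lyz2 by 2.59, Tyrobp by 1.01 and Fcer1g by 0.77) and none lower, with the list between -0.42 and 2.59. Of 7 keratinocyte markers 3 were lower (Krt10 by -1.31, Krt15 by -1.02 and Trp63 by -1.005), with the list between -1.31 and 0.18. None of 3 melanocyte and 6 endothelial markers was called. In ras cells at 48 h 1 keratinocyte marker was lower (Krt10, -0.96) and 1 leukocyte marker higher (Lyz2, 0.96). There 1.97% of all features were called higher and 1.59% lower. Neither marker was called with the reversed arrays turned and a dye term. At 24 h ras cells had 1 leukocyte marker higher, 1 leukocyte marker lower and 1 melanocyte marker lower (10.5% of all features called). Primary cells had 1 leukocyte marker higher at 24 h (1.35% of all features). None of these 24 h calls was made with the dye term. The part of these cells in the rise of Hmox1, Gclm, Gsto1 and Prdx4 was not tested. Ratios show a change of a marker and not its level, so the labelled cell type could not be checked, and fewer cells of a type cannot be told apart from less RNA in each of them.

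Of 39 measured genes of the NRF2 and glutathione pathways outside the 80, ras cells had 4 higher at 6 h (1.72% of all features were called), 7 higher and 1 lower at 24 h (10.5%) and 1 higher at 48 h (3.56%), and primary cells had 1 lower at 24 h (1.35%) and 3 higher and 2 lower at 48 h (8.64%). Chac1, which degrades glutathione, was higher in ras cells at 6 h (0.79, adjusted p = 0.0215) and at 24 h (0.78, adjusted p = 0.0166), and Slc3a2, the heavy chain of the cystine transporter, at 24 h (0.58, adjusted p = 0.00965) and 48 h (0.61, adjusted p = 0.0424). Osgin1, an oxidative stress gene, was lower in ras cells at 24 h (-0.85, adjusted p = 0.0284). In primary cells at 48 h the called genes were Fth1, which stores the iron that heme oxygenase releases (0.87, adjusted p = 0.0186), Idh1, a source of NADPH (0.70, adjusted p = 0.0238), Akr1b8, an aldo-keto reductase (0.77, adjusted p = 0.0457), and the transporters Abcc5 (-2.34, adjusted p = 0.00237) and Abcg2 (-0.75, adjusted p = 0.0102). Abcc5 and Abcg2 were also called with the reversed arrays turned and a dye term, and the others named here were not.

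The retinoid genes bear on the aldehyde dehydrogenases and P450s that make and break retinoic acid. Of 16 measured outside the 80, the retinoic acid binding protein Crabp1 (2.42, adjusted p = 4.87e-08) and the retinal reductase Dhrs3 (1.07, adjusted p = 0.00088) were higher in primary cells at 48 h, and the receptors Rara (-1.97, adjusted p = 0.00216) and Rxra (-0.98, adjusted p = 0.00409) were lower. In this group 8.64% of all features were called, and all 4 genes were also called with the dye term. In ras cells at 24 h Crabp1 (0.76) and Dhrs3 (0.59) were higher and Cyp26a1, which breaks down retinoic acid, was lower (-1.11). There 10.5% of all features were called, and none of these genes was called with the dye term. Of 14 genes of the epidermal lipid barrier, 1 was higher (Smpd1, 1.28) and 1 lower (Fabp5, -1.52) in primary cells at 48 h (8.64% of all features). Primary 24 h cells had 1 of these genes lower (1.35% of all features). Ras cells had 2 higher and 1 lower at 24 h (10.5%) and 1 lower at 48 h (3.56%). Fabp5 averaged -2.04 at primary 24 h, -1.55 at ras 24 h and -1.96 at ras 48 h.

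The Smad3 arrays were read singly. Smad3 itself, as a ratio, read -0.68 in knockout ras, -2.78 in knockout primary, -0.31 in wild type ras and -0.83 in wild type primary cells on Cy5 arrays, and since both channels of an array share the genotype this does not check the knockout. The question was whether the response to TGF-β1 at 48 h needs Smad3. In the difference of knockout minus wild type, over 1 array of each cell type and genotype, 1 member was lower and none higher (1.25%, against 1.73% of all features). The 4 single arrays are assumed to vary like the Balb/c arrays, from which the SE and adjusted p of this difference take their spread.

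That member was Gsta3, an alpha class glutathione transferase. It read -5.12 in knockout ras and 0.01 in knockout primary cells, against 2.87 in wild type ras and 2.08 in wild type primary cells. The difference of -5.03 thus joins a deep negative ratio in 1 knockout array with positive ratios in both wild type arrays. All Balb/c arrays lay within -0.90 to 0.81. The knockout ras and primary arrays lay further apart than that whole range, so the Balb/c spread behind the test may not be theirs. The reversed knockout arrays read -4.33 in ras and 0.01 in primary cells as deposited. The sign in knockout ras cells was the same with either dye, whereas Clu read 1.75 on the Cy5 and -0.94 on the reversed array of the same cells. With the reversed arrays turned and a dye term the difference was -3.13 and not called (adjusted p = 0.134). Kept as deposited, it was -4.90. Over all features the reversed knockout arrays as deposited correlated with the Cy5 arrays at 0.41 in ras and 0.48 in primary cells.

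Other members on these arrays differed less. Gsta4 read 0.50 in knockout ras and 0.83 in knockout primary cells, against -0.81 in wild type ras and -1.30 in wild type primary cells. The knockout values were above 0 and the wild type values below it, but the difference of 1.72 ± 0.57 was not called (adjusted p = 0.184), and the reversed knockout arrays were also positive as deposited, at 0.60 and 0.89. Txnrd1 read -0.38 and -0.65 in knockout ras and primary cells, against 0.24 and 0.36 in wild type ras and primary cells, with reversed knockout arrays at 0.67 and 0.60 (difference -0.81, adjusted p = 0.789). Gclc was positive on every array, at 0.49 and 1.02 in knockout ras and primary cells (0.51 and 0.61 reversed), against 0.27 and 0.47 in wild type ras and primary cells. Hmox1 read -0.23 and -0.21 in knockout ras and primary cells, against -0.14 and 0.64 in wild type ras and primary cells. The plot of the 6 arrays shows Gsta3 far outside the range of the other genes.

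**Figure D5:**
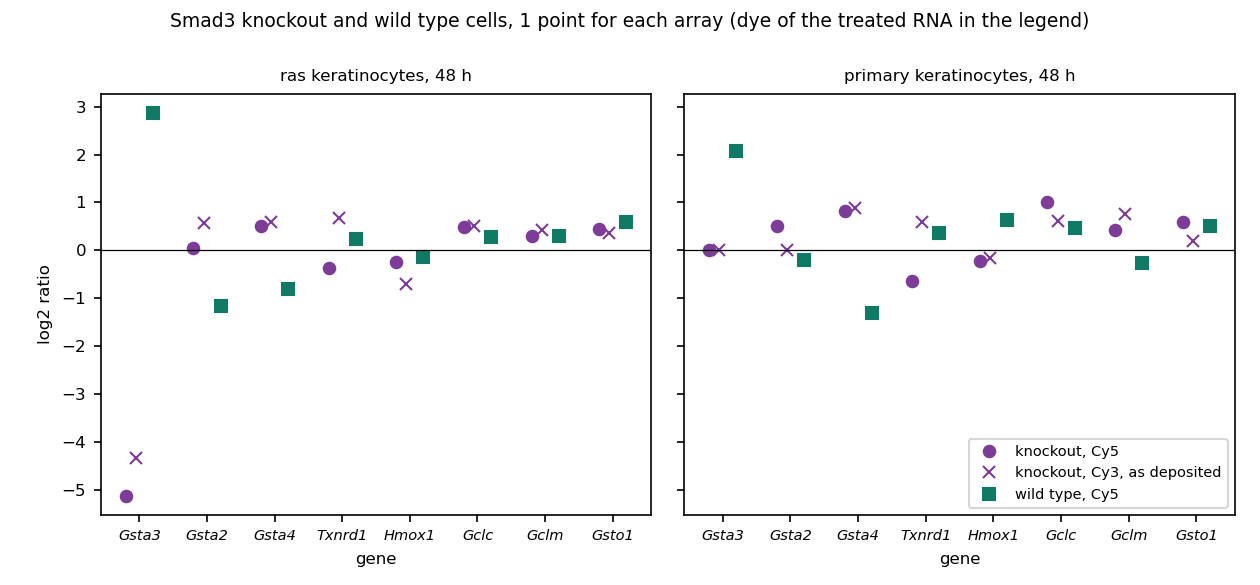
Log2 ratio (y axis) of 8 genes on the 6 Smad3 arrays at 48 h, ras cells on the left and primary cells on the right. Purple circles are knockout arrays with treated RNA in Cy5, purple crosses the reversed knockout arrays as deposited and green squares wild type arrays; Gsta3 lies below -4 on both knockout ras arrays and above 2 on both wild type arrays.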

How the data were processed

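Per the labels, total RNA of treated and untreated keratinocytes was labelled with Cy5 and Cy3 and hybridised together. The authors deposited 1 log ratio per probe and array, whose base is not stated and was taken as log2; the scanning and normalization are not stated in the sources read here, and spot brightness was not used, so the number of arrays limits the precision. Here probes of 1 platform symbol were averaged (8905 features) and each array was centred on its median. limma 3.58.1 in R 4.3.3 (lmFit, eBayes) fitted 1 mean for each group over all 49 Cy5 arrays, with contrasts for ras minus primary, 48 h minus 6 h and Smad3 knockout minus wild type; calls needed an adjusted p (Benjamini-Hochberg, two-sided) under 0.05. The fit was tested on simulated data. Alternatives were reversed arrays with a dye term, no centring, scaling, array weights, blocks of the array database number (split at gaps over 1000; the labels do not say what they are), replicate number as a block, single probes, leaving arrays out and fits of the compared arrays alone; a split of the metallothionein values by these blocks was added after the data were seen. The rule named members called with 1 sign on all arrays, members called in a contrast and a core of 20 genes, 15 of them measured. Groups over 5 arrays are mostly given by their range and median, and core genes without a call by the range of their means; Gsta4, Aldh3b2, Cyp2b19 and other members outside the rule were named after their values were seen. The members, gene lists and tests were chosen with earlier results of these data known.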

Additional observations from a re-analysis of the deposited data

Results flagged for a closer look

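For each of the 15 measured core genes, arrays that stood far from the rest of their group were sought in groups of 4 to 10 arrays, and in the called responses. Of 114 groups tested 18 had such an array, where chance gives about 1 in 20. Keap1 stood apart at 0.60 (nearest other array 0.08) on primary 1 h replicate 5, at 1.71 (0.19) on primary 6 h replicate 1, at -1.93 (-0.08) on ras 6 h replicate 2 and at 0.81 (0.07) on ras 24 h replicate 1. Nqo1 stood apart at 0.95 (0.16) on primary 1 h replicate 2 and at -0.98 (-0.15) on primary 6 h replicate 3. Hmox1 read -0.98 (0.04) and Mt2 0.70 (-0.34) on primary 6 h replicate 4, and Hmox1 read 0.30 (1.03) on ras 48 h replicate 4. Gclm read 1.04 (0.34) on primary 6 h replicate 7, Sod1 -1.68 (-0.19) on primary 24 h replicate 6 and Txnrd1 1.14 (0.13) on primary 24 h replicate 5. Cat read 0.55 (-0.01) on ras 1 h replicate 5, and Cyp3a11 -2.12 (-0.96) on ras 24 h replicate 1. Ras 6 h replicate 6 held 4 of the 18, with Gss at -0.47 (-0.11), Sod1 at 0.95 (0.02), Gpx1 at -0.68 (-0.13) and Txnrd1 at 0.72 (-0.17).

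Between times, Gsto1 (1.19), Hmox1 (1.48) and Txnrd1 (1.05) were higher at 48 h than at 6 h in primary cells by the test of the difference itself. Between genotypes, Gsta3 differed by -5.03 in Smad3 knockout minus wild type cells, in a test over 4 single arrays whose spread comes from the Balb/c arrays. With a dye term the difference was -3.13 and not called with the reversed arrays turned. It was -4.90 with them as deposited. Aldh16a1 was positive on every ras and negative on every primary Cy5 array at 48 h, with a difference of the means of 0.12; the difference was not tested for this pattern of signs, and its own test made no call.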

How the results depend on the processing

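Counts of members called are followed by the share of all features called in the same fit. For fits that left out 1 array at a time this share is not given. Those counts cannot show whether members moved more than all features. With the 7 reversed arrays turned and a dye term, members called numbered 6 at primary 24 h (3.66%), 2 at ras 1 h (1.2%), 3 at ras 24 h (1.71%) and 0 at ras 6 h (1.17%), ras 48 h (0.46%) and in the Smad3 contrast (0.707%). Primary 24 h and ras 1 h cells had no reversed array of their own. Kept as deposited with a dye term they numbered 0 at ras 6 h (0%), ras 24 h (0.0112%), ras 48 h (0.359%) and in primary 48 h minus 6 h (0.0225%). With arrays scaled to 1 spread the counts were 1 at primary 6 h (0.191%), 3 at primary 24 h (4.38%), 1 at ras 1 h (0.191%), 2 at ras 6 h (4.27%) and 4 at ras 24 h (3.39%). With array weights they were 11 at primary 24 h (9.32%), 2 at ras 1 h (1.01%), 7 at ras 6 h (13.4%), 4 at ras 48 h (3.69%), 4 in ras minus primary at 24 h (1.53%), 6 in primary 48 h minus 6 h (4.35%) and 2 in the Smad3 contrast (4.08%). Without the 2 widest arrays they were 1 at primary 24 h (1.98%), 2 at ras 6 h (2.68%) and 4 at ras 48 h (5.56%). Fits of 1 group's own arrays, with fewer arrays for the spread, gave 0 at primary 48 h (0%), ras 24 h (0.0337%) and ras 48 h (0%). Of 19 pairs of ras and primary arrays with the same time and replicate number, 5 correlated over 0.1 (range -0.23 to 0.39). This cannot exclude pairing, and pairs across times were not examined. As a block, the replicate number gave 6 at ras 24 h (5.1%) and 4 at ras 48 h (7.33%). Why these counts moved was otherwise not tested.

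Leaving out 1 array at a time gave 4 to 9 members at primary 48 h, 6 to 11 at ras 24 h, 0 to 2 at ras 48 h, 1 to 1 at ras 6 h, 1 to 5 in primary 48 h minus 6 h, 0 to 1 in ras minus primary at 48 h and 0 to 0 in the other responses, in ras minus primary at 1, 6 and 24 h and in ras 48 h minus 6 h; it was not run for the Smad3 contrast. The low counts came without primary 48 h replicate 2 (4 at primary 48 h and 1 in primary 48 h minus 6 h), ras 24 h replicate 6 or 7 (6 each) and ras 48 h replicate 1, 2 or 3 (0 each), and the high count of 5 without primary 6 h replicate 7.

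No value of the 26 member calls changed sign under these alternatives, and all 26 were kept without centring and with single probes. Both settings could change little. Array medians ran from -0.146 to 0.02, and of the called members only Prdx2 had 2 probes, of which the one with the smaller adjusted p was taken. Scaled arrays kept 16, losing Aldh2, Cyp2e1, Cyp2j6, Cyp3a11, Gsta4 and Mt1 at ras 24 h, Cyp2c68, Cyp2j6 and Gstp1 at primary 48 h, and Txnrd1 in primary 48 h minus 6 h. The replicate block kept 20 of 25, losing Aldh2, Cyp3a11, Gsta4 and Mt1 at ras 24 h and Gstp1 at primary 48 h. Blocks of the database number as a random term (correlation 0.0723) kept 22, losing Cyp3a11 and Gsta4 at ras 24 h, Cyp2c68 at primary 48 h and the Txnrd1 difference. Array weights kept 22, losing Aldh2, Cyp2e1 and Cyp3a11 at ras 24 h and Cyp2c68 at primary 48 h. Leaving out the 2 widest arrays kept 21, losing Aldh2, Cyp3a11, Gsta4 and Mt1 at ras 24 h and the Txnrd1 difference. With only the arrays of the groups compared, 2 of the 3 calls in primary 48 h minus 6 h were kept, and Hmox1 was lost (1.48, adjusted p = 0.115). A dye term kept 11 with reversed arrays turned and 6 with them as deposited, and fits of a group's own arrays kept 1 of 22, Cyp2j6 at ras 6 h.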
